A study of Homo sapiens with 2 samples.

Results

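PAX5 binding was described at 9 genes of the T-lymphocyte lineage and of early progenitors: the receptors NOTCH1, FLT3 and CD28, the nuclear regulators LMO2, GATA3, TCF7 and BCL11B, and the signalling proteins LCK and GRAP2. A peak was taken when its summit fell in the gene's window on the human genome build hg19 or within 10 kb of its borders, the window borders being given to 1 kb. This gave 16 peaks of the 21361 in the deposited list, from 665 kb of searched sequence. The peaks come from chromatin immunoprecipitation and sequencing (ChIP-seq) of NALM6, an established line of B-cell precursor leukaemia, which per the labels had no treatment. The series has 1 ChIP sample, made with an antibody to PAX5 (46190180 tags), and 1 input control made without antibody (25416858 tags). The control's title is marked RXL, a mark that the labels leave unexplained. There are no replicates, so no test between samples was possible, and no interval here covers variation between samples. Intervals of reads, folds, peak counts and densities cover counting error only.

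PAX5, a transcription factor with a paired DNA-binding domain, commits lymphoid progenitors to the B-cell lineage, where it activates B-cell genes and also represses genes of other lineages. In mice, pro-B cells without Pax5 keep the ability to become T cells, and Notch1, Flt3, Cd28 and Grap2 are among the genes that Pax5 represses there. Several of the 9 genes build the T-cell programme: GATA3, TCF7 and BCL11B are transcription factors of early T cells, while LCK and GRAP2 transmit the signal of the T-cell receptor. Expression was not measured in this series, so whether any of the 9 genes was silent in these cells was not tested.

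The sequences below are the 250 bases before annotated RefSeq starts (build GRCh38.p14), 5′ to 3′ along the gene. They are shown for the genes with a summit at the 5′ border of their window (CD28, FLT3 and the more 5′ of the LCK starts). BCL11B, which had no peak, is shown too. So are the GRAP2 start with a match to the PAX5 core letters and 1 of the 2 GATA3 starts with a match. Capitals mark a match to GCNTGAC on either strand. Peaks are on hg19 and no position was moved between builds, so it was not determined which peak covers which start.

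CD28 (summit at the 5′ border, chr2:203706389-203706638, + strand): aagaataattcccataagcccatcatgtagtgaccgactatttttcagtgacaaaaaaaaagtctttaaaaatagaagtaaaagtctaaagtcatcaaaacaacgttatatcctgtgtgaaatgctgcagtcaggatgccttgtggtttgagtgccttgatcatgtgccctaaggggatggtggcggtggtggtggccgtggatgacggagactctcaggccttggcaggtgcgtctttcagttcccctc

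FLT3 (summit at the 5′ border, chr13:28100577-28100826, - strand): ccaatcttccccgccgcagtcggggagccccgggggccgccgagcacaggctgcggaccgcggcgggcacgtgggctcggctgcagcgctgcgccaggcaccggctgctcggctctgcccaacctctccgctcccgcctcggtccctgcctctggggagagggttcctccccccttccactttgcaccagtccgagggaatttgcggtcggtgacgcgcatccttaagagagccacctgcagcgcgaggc

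LCK (summits at the 5′ border, chr1:32251015-32251264, + strand): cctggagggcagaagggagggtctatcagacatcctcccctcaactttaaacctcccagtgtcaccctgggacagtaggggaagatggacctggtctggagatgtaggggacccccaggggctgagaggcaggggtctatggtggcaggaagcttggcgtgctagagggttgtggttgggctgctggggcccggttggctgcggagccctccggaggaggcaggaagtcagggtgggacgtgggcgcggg

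BCL11B (no peak in the span, chr14:99272198-99272447, - strand): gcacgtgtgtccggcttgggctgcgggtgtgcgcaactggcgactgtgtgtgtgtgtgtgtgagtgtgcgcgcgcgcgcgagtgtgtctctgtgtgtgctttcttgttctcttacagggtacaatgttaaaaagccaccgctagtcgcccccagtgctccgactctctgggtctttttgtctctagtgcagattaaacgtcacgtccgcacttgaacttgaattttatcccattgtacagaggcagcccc

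GATA3 (motif match, chr10:8053391-8053640, + strand): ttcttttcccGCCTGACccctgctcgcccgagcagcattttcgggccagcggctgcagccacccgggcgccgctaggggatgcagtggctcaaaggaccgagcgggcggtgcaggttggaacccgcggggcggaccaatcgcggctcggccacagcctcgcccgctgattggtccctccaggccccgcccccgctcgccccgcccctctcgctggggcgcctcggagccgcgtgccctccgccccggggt

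GRAP2 (motif match, chr22:39946567-39946816, + strand): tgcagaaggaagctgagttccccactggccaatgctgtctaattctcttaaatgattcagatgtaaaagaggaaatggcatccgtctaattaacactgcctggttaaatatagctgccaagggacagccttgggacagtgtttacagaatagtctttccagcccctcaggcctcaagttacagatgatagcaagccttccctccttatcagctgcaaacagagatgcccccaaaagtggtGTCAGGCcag

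RefSeq start windows were found for 8 of the 9 genes, 16 in all, with a GC content between 38.4% at a GRAP2 start and 76.0% at NOTCH1, against a median of 58.0% over all 35116 start windows. The letters GCNTGAC, searched on both strands, occurred in 3 of the 16, against 3159 of all 35116 (8.996%). The more specific GCGTGAC, whose matches are all matches of GCNTGAC too, occurred in none of the 16 and in 2.20% of all. In the GATA3 sequence shown above the match read GCCTGAC and began 240 bases before the start, and another of the 6 GATA3 starts held GCTTGAC beginning 11 bases before it. At GRAP2 the match lay on the opposite strand and read GTCAGGC in the printed direction, beginning 10 bases before the start. CD28, FLT3, LCK, NOTCH1, TCF7 and BCL11B had no match in these windows.

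PAX5 peaks were found at 7 of the 9 genes. Of all bins as wide as the searched spans, between 17.7% and 35.0% held a summit, but these also cover unsequenced and gene-poor stretches. The genes were chosen with earlier results of these data known, so the 7 of 9 is a description only. LCK had 7 and GRAP2 had 4, NOTCH1, FLT3, CD28, GATA3 and TCF7 had 1 each, and LMO2 and BCL11B had none. LCK and GRAP2 together therefore held 11 of the 16 peaks (68.8%). Of the 16 summits, 12 lay inside a gene window and 4 in the margins, all 4 of these at LCK.

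**Figure D1:**
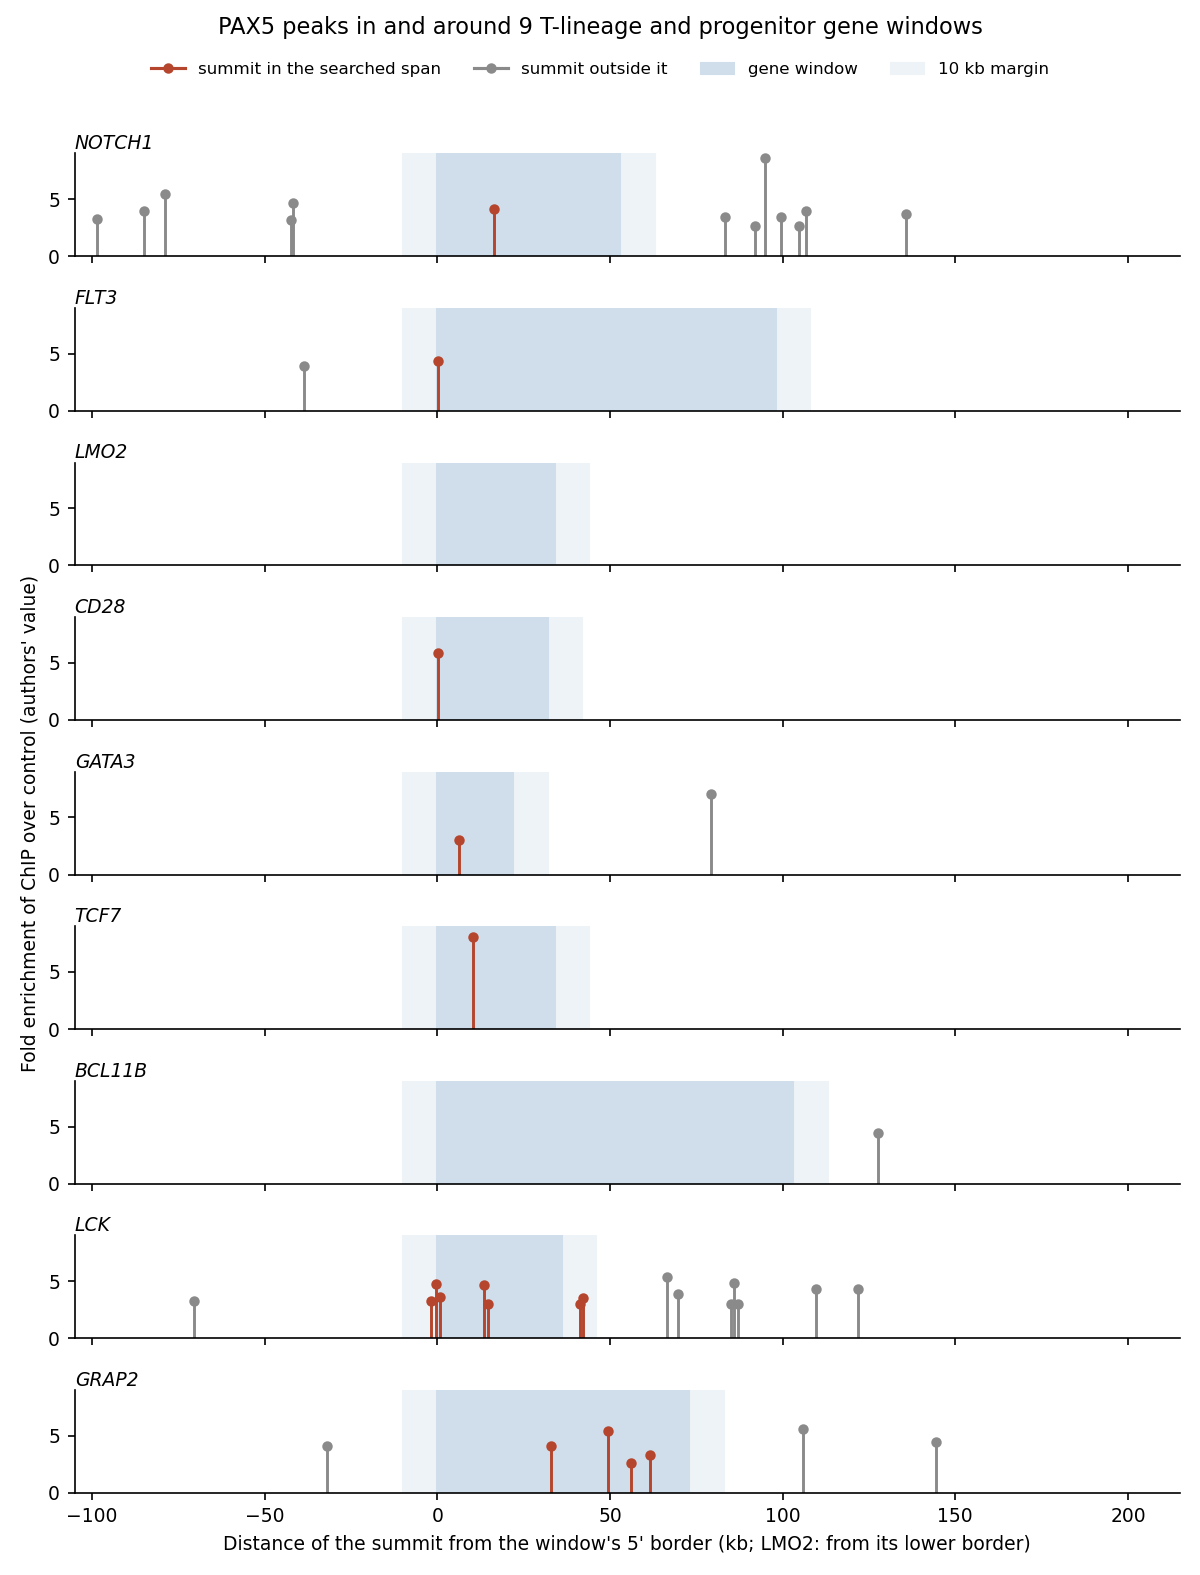
Fold enrichment of ChIP over control, as deposited by the authors (y axis), against the distance of the summit from the 5′ border of the gene window in kb (x axis), for summits up to 100 kb from each window; red summits lie in the searched span and grey ones outside. The searched spans of LMO2 and BCL11B are empty, with a grey summit beyond the 3′ margin of BCL11B, CD28 and FLT3 have their summit at the 5′ border, and LCK has 7 summits in 3 places.

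Each peak is described by the ChIP reads over its summit, recovered from the deposited pileup, and by the control background there, in extended control reads. The caller scaled ChIP reads by 0.550 to the depth of the control and, after adding a pseudocount of 1 to both, divided them to give the fold enrichment. All folds and q-values are the authors' own.

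Among the receptors, CD28 carried the most enriched peak. CD28 is the co-stimulatory receptor of T cells, and its peak lay on chromosome 2 from 204571111 to 204571428, 318 bp wide, with the summit 0.247 kb inside the 5′ border. At the summit 76 ChIP reads (95% Poisson interval 59.9 to 95.1) stood over 6.30 reads of control background, for a fold of 5.87 (4.65 to 7.31) and a −log10 q of 16.7. Its fold was higher than that of 84.9% of all listed peaks. It stood alone: the nearest summits outside the searched span were 108 kb away on the 5′ side, with a fold of 5.96, and 289 kb away on the 3′ side, with a fold of 6.09. CTLA4 is the next gene on the 3′ side in the RefSeq order, but where it lies relative to that summit was not determined.

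FLT3, the receptor tyrosine kinase of early lymphoid and myeloid progenitors, likewise had its peak at the 5′ border. The peak covered chromosome 13 from 28674560 to 28675023, with the summit 0.260 kb inside the border and the rest of a 98 kb window without a listed summit. It had 46 ChIP reads (33.7 to 61.4) over a background of 5.0, a fold of 4.39 (3.26 to 5.79) and a −log10 q of 7.44. Of all peaks, 19.97% had fewer reads, but only 13.9% had a lower background, and the fold ranked above 63.3% of them. The next protein-coding gene beyond this border in the RefSeq order is PAN3.

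NOTCH1 encodes the receptor that directs progenitors into the T-cell lineage. Its peak was inside the gene window, on chromosome 9 from 139424162 to 139424853, 692 bp wide, with the summit 16.4 kb from the 5′ border. It had 66 ChIP reads (51.0 to 84.0) over a background of 8.0, a fold of 4.15 (3.23 to 5.25) and a −log10 q of 9.87. The interval contains the median fold of all peaks, 3.89. No summit lay at the 5′ border of the window, the nearest on that side being 41.7 kb beyond it with 109 reads and a fold of 4.69.

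Of the 4 nuclear regulators, TCF7 and GATA3 each had a peak and LMO2 and BCL11B had none. The TCF7 peak was the strongest of the 16 by fold, by reads and by q. TCF7 encodes TCF-1, a factor that early T-cell development depends on. Its peak covered chromosome 5 from 133460178 to 133460824, 647 bp, with the summit 10.4 kb inside the 5′ border. It held 130 ChIP reads (109 to 154) over 8.0 of control background, a fold of 8.06 (6.75 to 9.55) and a −log10 q of 37.9, and it ranked 966 by fold and 1005 by q among the 21361 peaks. Its fold interval lay above that of 14 of the other peaks and overlapped that of CD28. TCF7 was the only one of the 16 among the 10% of listed peaks with the highest fold.

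GATA3, the zinc-finger factor required for T-cell commitment, had many reads and a low fold. Its peak on chromosome 10 from 8102038 to 8102447, with the summit 6.19 kb inside the 5′ border, held 75 ChIP reads (59.0 to 94.01), about as many as CD28. The control background of 13.0 reads was the highest of the 16 and above that of 91.1% of all peaks. The fold was accordingly 3.02 (2.39 to 3.77), below the median of all peaks over its whole interval. A stronger peak lay outside the searched span, 57.2 kb beyond the 3′ border, on chromosome 10 from 8175063 to 8175535, with 113 reads over a background of 8.0 and a fold of 7.02.

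BCL11B, the zinc-finger regulator that fixes T-cell identity, had no listed summit in its 123 kb searched span. The interval free of summits around it ran for 404 kb. On its 3′ side it ended 24.5 kb from the window, at the closest of all summits outside a searched span. That peak had few reads, 28, over a low background of 2.70, and a fold of 4.43. On its 5′ side it ended 277 kb away, at a peak on chromosome 14 from 100014456 to 100015090 with 171 reads over a background of 16 reads, a fold of 5.59 and a −log10 q of 36.3. LMO2, a LIM-domain adaptor of blood stem cells and an oncogene of T-cell leukaemia, had none in 54 kb. The summits on either side of it were 326 kb apart, at 134 and 159 kb from the window, with folds of 3.65 and 5.74.

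The absence of a listed peak sets only a limit. Among listed peaks on the genome mean of the control (2.12 reads), the weakest held 19 ChIP reads, and among the 1415 peaks with a background of 8 reads the weakest held 37. Occupancy below such levels at LMO2 and BCL11B could not be told apart from none, since only called peaks were analysed.

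LCK had the densest binding of the 9 loci. LCK is the Src-family kinase that phosphorylates the T-cell receptor complex. Its 7 summits fell in 3 places: 3 around the 5′ border within 2.77 kb of each other, 2 at 13.6 and 14.6 kb inside the window, and 2 in the margin, 5.40 and 6.11 kb beyond the 3′ border. Between 14.6 and 41.4 kb from the 5′ border no summit was listed. Bins of the same 56 kb width that held at least 7 summits made up 0.408% of all such bins on chromosomes 1 to 22 and X.

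The strongest of the LCK peaks, on chromosome 1 from 32715364 to 32716063, crossed the 5′ border, with its summit in the margin 0.270 kb before the border. It was 700 bp wide, the widest of the 16, and held 111 ChIP reads (91.3 to 134) over a background of 12 reads, a fold of 4.78 (3.94 to 5.74) and a −log10 q of 20.01. The second, from 32729309 to 32729717, had 92 reads (74.2 to 113) over 10 and a fold of 4.69 (3.80 to 5.74). The third, from 32716754 to 32717215 with the summit 0.916 kb inside the border, had 61 reads (46.7 to 78.4) over 8.55 and a fold of 3.62 (2.79 to 4.62).

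The other 4 LCK peaks were weaker, with 44 to 58 reads and folds between 2.96 and 3.50. None of the 7 reached a fold of 5, which 25.0% of all listed peaks did, and 5 of them were below the median fold of all peaks. Per RefSeq, LCK lies between FAM167B on its 5′ side and HDAC1, a histone deacetylase gene, on its 3′ side, so position alone does not assign the 4 peaks of the margins to LCK.

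GRAP2 encodes GADS, the adaptor that links LAT to SLP-76 below the T-cell receptor. All 4 of its peaks lay inside the gene window: the most 5′ summit was 32.9 kb from the 5′ border, 45.1% of the way through the window, and the last was at 84.5%. The strongest by fold, on chromosome 22 from 40346375 to 40346899, had 86 ChIP reads (68.8 to 106) over a background of 8.0, a fold of 5.37 (4.32 to 6.61) and a −log10 q of 17.5. The most 5′ peak, from 40329616 to 40330171, had as many reads, 88 (70.6 to 108), over a background of 11 reads, and a fold of 4.12 (3.32 to 5.06). The intervals of these 2 folds overlap.

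The GRAP2 peak from 40358431 to 40358860 had 58 reads over 9.0 and a fold of 3.29, the same values as the most 5′ of the LCK peaks. That from 40353005 to 40353361 had 41 reads (29.4 to 55.6) over 8.0 and a fold of 2.62 (1.91 to 3.51), the lowest of the 16, with a −log10 q of 2.35. GRAP2 thus spanned a range of folds wider than LCK within 28.8 kb. Bins of its 93 kb searched width with at least 4 summits made up 5.13% of all such bins. Chromosome 22 as a whole was rich in peaks, with 21.8 per Mb against 7.25 over chromosomes 1 to 22 and X. At the density of chromosome 22 the span would hold 2.02 summits, within the Poisson interval of the count of 4 (1.09 to 10.2).

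**Figure D2:**
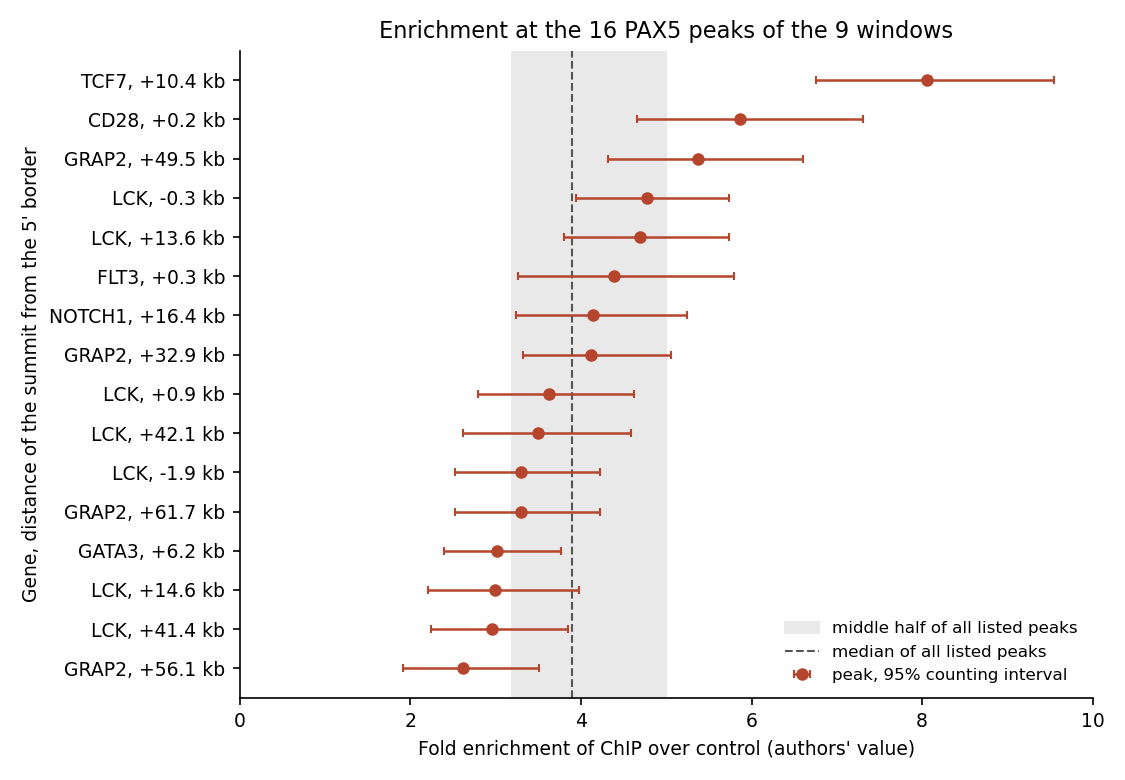
Fold enrichment as deposited by the authors (x axis) of the 16 peaks, each named by its gene and the distance of its summit from the 5′ border (y axis); bars are 95% counting intervals with the control background held fixed. TCF7 (8.06), CD28 (5.87) and a GRAP2 peak (5.37) are the 3 above a fold of 5, and the dashed line is the median of all 21361 peaks (3.89).

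As a set, the 16 peaks were of ordinary strength. Their median fold was 3.87 (exact order-statistic interval 3.02 to 4.78), against 3.89 over all listed peaks, and 8 lay above and 8 below that median. The pooled value mixes unlike parts. The 11 peaks of LCK and GRAP2 had a median fold of 3.50 (range 2.62 to 5.37), with 4 at or above the median of all peaks. The 5 genes with 1 peak had a median of 4.39 (range 3.02 to 8.06), with 4 at or above it. A fold of at least 5 was reached by 3 of the 16 (18.8%, Wilson 95% interval 6.59 to 43.0), against a background of 25.0% of all listed peaks. The order-statistic and Wilson intervals treat the 16 peaks as independent draws, although 11 of them lie at LCK and GRAP2. The fold interval of 4 peaks (TCF7, CD28, a GRAP2 and a LCK peak) lay wholly above the median of all peaks, that of 3 wholly below it, and that of 9 included it. The median was 63.5 ChIP reads and a width of 446 bp for the 16, against 61 reads and 383 bp for all peaks.

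The control background also entered the order by fold. Backgrounds ranged from 5.0 reads at FLT3 to 13.0 at GATA3 with a median of 8.28, against 8.0 over all peaks. None of the 16 rested on the genome mean: by its value, the background was assigned to the window at the summit at 13 and to that of 1000 bp at 3 (CD28 and a pair at LCK). Ranked by reads, GATA3 stood above 68.7% of all peaks and by fold above 19.0%, whereas FLT3 stood above 19.97% by reads and 63.3% by fold. What raised the control at GATA3 was not tested.

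**Figure D3:**
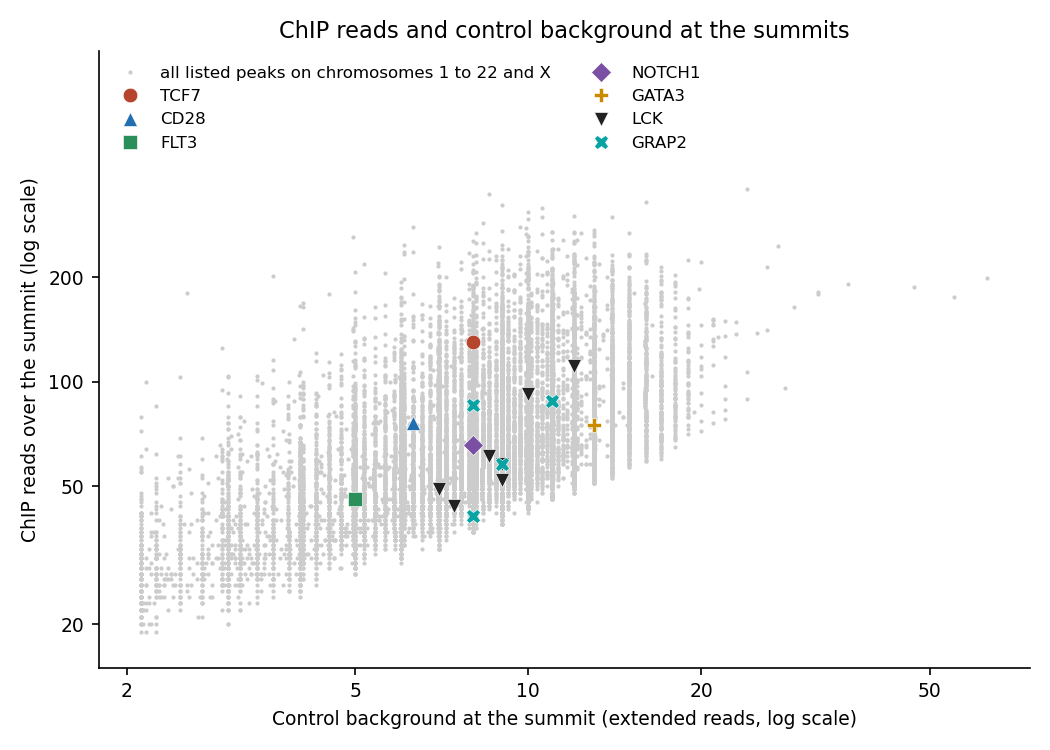
ChIP reads over the summit (y axis, log scale) against the control background there (x axis, extended reads, log scale); grey points are all listed peaks on chromosomes 1 to 22 and X and coloured symbols the 16 peaks. TCF7 (130 reads over 8.0) stands highest, and CD28 (76 reads over 6.30) and GATA3 (75 over 13.0) have like numbers of reads at different backgrounds; a LCK symbol is hidden under the GRAP2 symbol at 58 reads.

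Position in the gene window varied. A summit lay within 1 kb of the 5′ border at 3 genes, CD28, FLT3 and LCK, which had 4 such summits between them. The summits of NOTCH1, TCF7 and GATA3 lay at 31.0%, 30.7% and 28.2% of the window length. Whether a summit was in an exon, an intron or a promoter was not determined, since no hg19 gene annotation was used.

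The density of peaks in the searched spans was 24.1 per Mb (95% Poisson interval 13.8 to 39.1), 3.32 times that of chromosomes 1 to 22 and X (1.90 to 5.39). At that common density the spans would hold 4.82 peaks, and at the density of each gene's own chromosome 5.79, against the 16 listed. Against the 500 kb on each side of the spans, where 176 peaks gave 19.6 per Mb, the ratio was 1.23. Both ratios depended on LCK. Without it, 9 peaks in 609 kb gave 14.8 per Mb, a ratio to the chromosomes of 2.04 (0.932 to 3.87) and to the flanks of 0.763. Without LCK and GRAP2 the ratios were 1.34 (0.434 to 3.12) and 0.518. These intervals treat peaks as independent, although those at LCK lie close together.

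Of the spans, 7 of 9 held at least 1 summit. Among all bins of the same widths, the share with at least 1 summit was 25.7% at the width of the NOTCH1 span, 34.0% for FLT3, 21.1% for LMO2 and for TCF7, 20.5% for CD28, 17.7% for GATA3, 35.0% for BCL11B, 21.6% for LCK and 29.8% for GRAP2. The bins also cover unsequenced and gene-poor stretches, so these shares are lower than those of bins at genes would be, to an extent that was not measured.

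NOTCH1 stood in the richest surroundings, with 67 peaks in the 500 kb on each side, or 67.0 per Mb (51.9 to 85.1), whereas its own chromosome averaged 6.49. Its 73 kb span held 1 peak, against 4.89 at the density of the flanks, a value within the Poisson interval of the count (0.03 to 5.57). At the density of the nearest 250 kb on each side it was 7.30, above that interval, so the reading depends on the width of the flanks. The TCF7 span held 1 peak, against 1.51 at the density of its flanks (28.0 per Mb). The BCL11B span held none, against 2.09 at the density of its flanks (17.0 per Mb), within the limit of 3.69 that a count of 0 allows.

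LCK went the other way. Its 7 peaks compare with 1.18 at the density of its flanks (21.0 per Mb), a value below the Poisson interval of the count (2.81 to 14.4). With the borders as given, that excess rests on the margins: the gene window alone held 3 peaks (0.619 to 8.77), against 0.756 at the density of the same flanks, within the interval. The borders are given to 1 kb, and the strongest LCK peak crosses the 5′ border with its summit 0.270 kb outside. A count of 4 has an interval of 1.09 to 10.2, above 0.756, so the reading depends on the side on which that peak is counted. GRAP2 had 4 peaks against 2.23 at the density of its flanks, within its interval of 1.09 to 10.2, but 0.93 at the density of flanks of 250 kb, below it. CD28 and GATA3 had 4.0 and 3.0 peaks per Mb in flanks of 500 kb, and FLT3 and LMO2 had 6.0 each, an order that changed with flanks of 250 kb or 1 Mb.

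**Figure D4:**
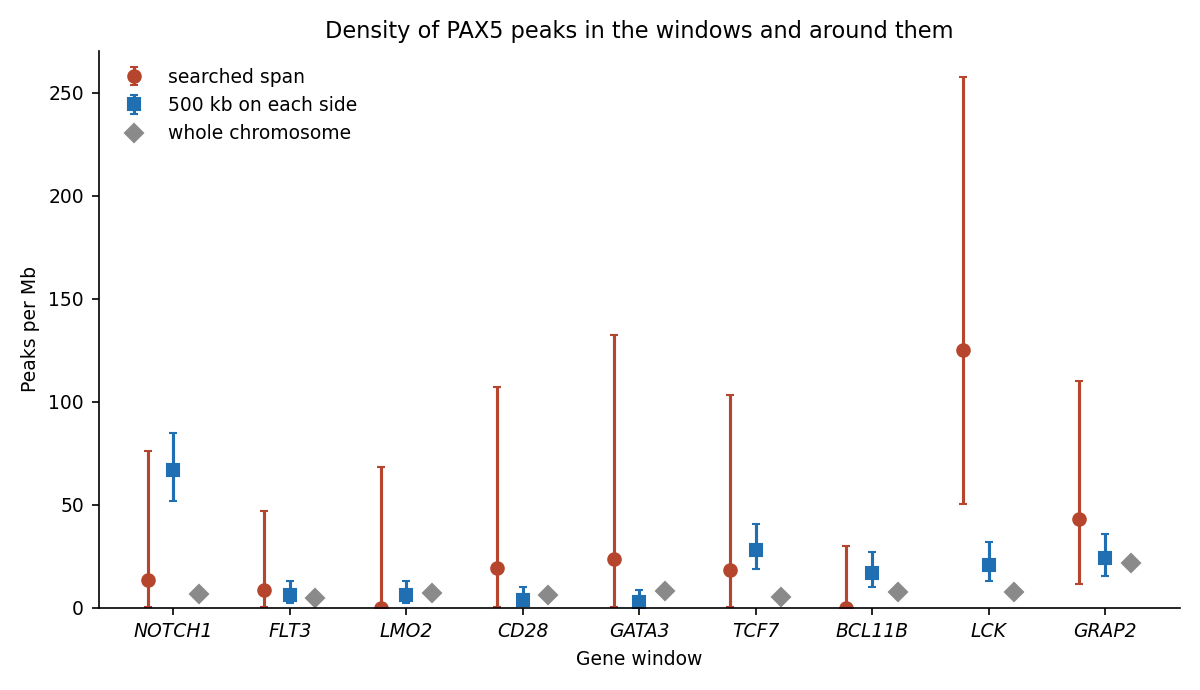
Peaks per Mb (y axis) for each gene (x axis), in the searched span (circles), in the 500 kb on each side of it (squares) and over the whole chromosome (diamonds); bars are exact Poisson 95% intervals of the counts. At NOTCH1 the span (13.7) lies below its flanks (67.0), though its bar (0.35 to 76.3) includes them, and at LCK the span (125) lies above them (21.0). The wide bars of the spans with 0 or 1 peak show how little such a count resolves.

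The searched borders fell in gaps between peaks. The summit nearest to a border from inside was the most 3′ at LCK, 3.90 kb within it and with a fold of 3.50. The nearest from outside was the BCL11B one, 14.5 kb beyond it with a fold of 4.43, followed by NOTCH1 at 20.4 kb with a fold of 3.43. All 16 peaks were in the authors' cleaned list with identical borders.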

How the data were processed

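PAX5 ChIP and input of NALM6 cells were each sequenced as 1 sample. The submitters' processing notes name BWA and hg19 for the alignment. Per the file headers, MACS2 (version 2.1.1.20160309) compared pooled ChIP reads with a combined control, extended tags of 50 bp to 225 bp and kept peaks at a q-value of 0.05. The number of pooled libraries is not given, and a pool hides their spread. The deposited pileup signal is scaled to the control's depth. The deposited fold is the ratio of this signal to the local background in the control, and the deposited −log10 p and q come from the caller's Poisson comparison.

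The windows and genes were chosen with earlier results of these data known. Reads were recovered as pileup divided by 0.550 (100% whole within 0.005 pileup units) and background from pileup and fold. A background that was a whole number of reads was assigned to the summit window even where a wider window could also give it. A background in steps of the 1000 bp window was assigned to that window, though the 10000 bp window can also give it. Intervals are exact Poisson, Wilson or order-statistic at 95%. Density used the span between the first and last summit of each chromosome. All peaks were counted and described, with position, reads, background and fold given for the 3 of highest fold per gene. Strands and start sequences came from RefSeq GRCh38.p14, with gene neighbours by order only. Planned motif counts at summits and counts over further T-cell, Notch and progenitor genes need an hg19 sequence and annotation, not used here. Alternatives were another margin, the cleaned list, a stricter q, merging, overlap in place of the summit, and leaving out genes. Scripts were tested on simulated data. The work was done in Python 3.11.15 with scipy 1.17.1, pandas 2.3.3 and numpy 2.4.6, and plotted with matplotlib 3.10.9.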

Additional observations from a re-analysis of the deposited data

How the results depend on the processing

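The number of peaks, 16, was 30 with a margin of 50 kb and 6 at a −log10 q of at least 10, both by construction, and 9 without the LCK window or 5 without LCK and GRAP2. It stayed between 12 and 16 in the other 12 alternatives. The median fold of 3.87 was 5.07 at a −log10 q of at least 10, where the share with a fold of at least 5 was 50%, since that threshold removes weak peaks. In the other 15 alternatives the median lay between 3.62 and 4.39, and the share stayed in its interval. The density ratio to the chromosomes, 3.32, was 1.34 without LCK and GRAP2, and that to the flanks, 1.23, was 0.518. Without LCK alone the second was 0.763, on the other side of 1. The flank ratio was 1.1 with flanks of 250 kb, 1.37 with 1 Mb and 1.86 without NOTCH1. The flank comparison and leaving out LCK and GRAP2 together were chosen after seeing the data. No paired analysis was possible because the series has 1 ChIP and 1 input sample. The motif alternatives at summits were not run, as no hg19 sequence was used. Counts of 0 or 1 peak per span limit every comparison of single loci.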
